A study of Rattus norvegicus with 31 samples.

Results

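The 9 genes described here make up the core of antigen presentation by the rat major histocompatibility complex (MHC), which in rats is called RT1. They were taken from the count table by symbol, and all 9 were found among the 20207 gene symbols listed. The class I genes are RT1-A1, B2m, Tapbp and Tap1, 4 in all. The 5 class II genes are RT1-Ba, RT1-Bb, RT1-Da, RT1-Db1 and Cd74. RNA was sequenced from kidney cortex and colon of rats in 3 groups, in a study of calcitriol, the active form of vitamin D, in hypertension caused by salt. The CAL group was fed high salt and given calcitriol (6 colon and 6 cortex libraries), the HS group was the high-salt model without it (5 colon and 4 cortex libraries), and NC was the normal control (5 colon and 5 cortex libraries). CAL and HS therefore share the salt and differ in the supplement. Strain, sex, age, salt content, dose and duration were not given in the sources used here, and RT1 genes differ in sequence between rat strains. Libraries are separate samples by their labels, so each p measures the spread between these samples.

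MHC class I molecules pair a heavy chain such as RT1-A1 with beta-2 microglobulin (B2m) and show peptides from inside the cell to CD8 T cells. Tap1 is a subunit of the peptide transporter of the endoplasmic reticulum, and Tapbp encodes tapasin, which holds empty class I molecules beside that transporter. Class II molecules pair an alpha with a beta chain, RT1-Ba with RT1-Bb and RT1-Da with RT1-Db1, and show peptides taken up from outside to CD4 T cells. Cd74 is the invariant chain that escorts them through the cell. Nearly all nucleated cells make class I, whereas B cells, dendritic cells and macrophages are the main makers of class II.

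The promoters of the 4 class II chains are shown here because their RNA moved together in the colon. Class II promoters are known for an X box, bound by the RFX complex, followed by a Y box, bound by NF-Y. Promoter sequences of 300 bases (250 before to 50 after the start) came from RefSeq for the assembly GRCr8 and were found for 9 of 9 genes, whereas the reads were counted on Rnor_6.0. The stretches below are given 5′ to 3′ on the strand of the gene, and capitals mark the X box core GCAAC and the Y box core ATTGG.
RT1-Ba, chr20:4576947-4577026 (+): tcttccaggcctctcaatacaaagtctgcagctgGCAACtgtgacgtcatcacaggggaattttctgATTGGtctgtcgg
RT1-Bb, chr20:4604149-4604228 (-): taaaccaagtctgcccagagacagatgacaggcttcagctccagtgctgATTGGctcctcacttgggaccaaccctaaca
RT1-Da, chr20:4515305-4515384 (+): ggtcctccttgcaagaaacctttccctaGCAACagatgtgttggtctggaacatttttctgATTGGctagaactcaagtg
RT1-Db1, chr20:4560213-4560292 (-): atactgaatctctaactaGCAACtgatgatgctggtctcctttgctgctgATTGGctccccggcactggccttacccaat
On either strand, the X core alone was found in 35.07% of 33469 promoters and the Y core alone in 37.49%. An X core followed on its own strand by a Y core 15 to 40 bases further on was found in 1.147% of promoters and in those of RT1-Ba, RT1-Da and RT1-Db1. The longer Y box CTGATTGG, which contains the Y core, was found in 3.502% of promoters, in all 4 class II chains and, on the opposite strand, in RT1-A1. The exact letters GCAAC were not found in RT1-Bb. Variants of a motif were not searched for, so a missing match does not show that a box is absent. RT1-Da and RT1-Db1 also carried a longer X box, with A before GCAAC and GATG 1 base after it, found in 0.04781% of promoters. The promoter of Cd74, not shown, had an X core and, on the opposite strand, a Y core. Neither the spaced pair of cores nor either longer box was found in it.

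A class I promoter is shown for comparison. In RT1-A1 the kappa B sequence, bound by NF-kappa B factors and marked by capitals, was found in 0.06274% of promoters on either strand.
RT1-A1, chr20:4907069-4907138 (+): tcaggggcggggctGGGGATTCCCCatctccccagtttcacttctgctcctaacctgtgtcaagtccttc
An interferon regulatory factor motif, GAAA repeated with 2 bases between, was found on either strand in 3.92% of promoters, among them those of B2m, Tapbp and Tap1. These motifs were chosen after the sequences were seen, and a match describes letters, not binding.

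Total counts were 267976 to 918820 per colon library and 289529 to 2265164 per cortex library. Levels are in CPM, counts scaled to a common library size, after trimmed-mean (TMM) scaling within a tissue, and they are not compared between genes because transcript lengths were not used here. Tissue labels were checked against marker sums: colon epithelium markers summed to 17806 to 31032 CPM per colon library and 727 to 1117 CPM per cortex library, and proximal tubule markers to 38.7 to 160.3 CPM in colon and 11838 to 16404 CPM in cortex. HS colon replicates 3 and 4 stood apart on the first principal component of the colon, at -52.9 and -20.3, with the other 14 libraries between -11.0 and 14.2. Colon comparisons with HS are therefore given with and without them. In bulk tissue, fewer cells of a type and less RNA per cell cannot be told apart. RT1 class I heavy chain genes are close copies of each other, so counts of RT1-A1 may include or lose reads of its relatives. As the strain was not given, RT1 reads lost through sequence differences from Rnor_6.0 cannot be told apart from lower RNA.

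In the kidney cortex of HS rats, RNA of the class I heavy chain RT1-A1 and of the class II chains RT1-Ba and RT1-Db1 fell against NC, while B2m rose. Of 8 members tested, 1 rose and 3 fell by the edgeR quasi-likelihood test with Benjamini-Hochberg adjustment over all genes (threshold 0.05). Of all 7524 genes tested, 11.0% changed, 7.35% higher and 3.69% lower. The members' median log2 fold change was -0.71, with 7 of 8 below 0, and that of all genes was -0.01. Tap1 had too few counts in the cortex to be tested, at 3.51 to 13.1 CPM in HS and 7.20 to 13.8 CPM in NC.

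RT1-A1 was at 39.9, 73.2, 70.1 and 78.8 CPM in the 4 HS cortex libraries, and at 155, 117, 117, 90.7 and 93.4 CPM in the 5 NC cortex libraries. The HS libraries all lay under the lowest NC library, as they did for 5.64% of all tested genes, and 7.44% had the opposite pattern. The log2 fold change was -0.79 (SE 0.24, edgeR adjusted p = 0.0356). The call was lost when HS replicate 1, 2, 3 or 4 or NC replicate 1 or 3 was left out (edgeR adjusted p from 0.0509 to 0.121). RT1-A2, a close relative named after its values were seen, had 155, 70.2, 228 and 181 CPM in HS and 248, 119, 250.3, 169.5 and 170.1 CPM in NC, and its log2 fold change of -0.30 (SE 0.26, edgeR adjusted p = 0.483) did not pass.

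B2m, the light chain shared by class I molecules, went the other way. It was at 1649, 1532, 1500.4 and 1197 CPM in HS cortex, against 1079, 1224, 745, 826 and 1117 CPM in NC cortex. Of the HS libraries, replicate 4 lay below the highest NC library and the others lay above all 5. The log2 fold change was 0.55 (SE 0.14, edgeR adjusted p = 0.0127), and without HS replicate 1 the adjusted p was 0.0567. The log2 ratio of RT1-A1 to B2m ran from -5.28 to -3.88 in HS cortex and from -3.54 to -2.64 in NC cortex, with no overlap. This ratio sets a gene that fell against a gene that rose in the same comparison, so it is no separate result. The share of other gene ratios without overlap was not computed.

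Tapbp was at 55.4, 33.6, 45.6 and 38.2 CPM in HS cortex and at 62.4, 58.6, 63.0, 78.8 and 75.1 CPM in NC cortex. The groups did not overlap, yet the log2 fold change of -0.67 (SE 0.25) did not pass (edgeR adjusted p = 0.0888).

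Among the class II chains, RT1-Ba was at 68.7, 58.0, 42.1 and 164 CPM in HS cortex and at 417, 209.8, 166, 84.8 and 86.7 CPM in NC cortex. HS replicate 4 lay within the NC range and the other HS libraries lay below it. The log2 fold change of RT1-Ba was -1.12 (SE 0.37, edgeR adjusted p = 0.0492). This call sat at the threshold. It was lost when HS replicate 1, 2 or 3, NC replicate 1, 2 or 3 or CAL replicate 2, 3, 4 or 6 was left out (edgeR adjusted p from 0.0503 to 0.196), under DESeq2 (adjusted p = 0.0954) and under limma voom with library weights (adjusted p = 0.0871).

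RT1-Db1, the beta chain of the other dimer, was at 46.5, 67.1, 123 and 235 CPM in HS cortex and at 482, 313, 173, 169.5 and 177 CPM in NC cortex. Again HS replicate 4 reached into the NC range and the other HS libraries lay below it. The log2 fold change of RT1-Db1 was -1.12 (SE 0.33, edgeR adjusted p = 0.0324), lost without HS replicate 1, 2 or 3 or NC replicate 1 or 2 (edgeR adjusted p from 0.0532 to 0.138) and under DESeq2 (adjusted p = 0.0737). RT1-Bb was at 48.8, 122, 63.1 and 115 CPM in HS cortex and at 254, 163, 119, 106 and 123 CPM in NC cortex, and its log2 fold change of -0.75 (SE 0.25) did not pass (edgeR adjusted p = 0.0509). RT1-Bb passed under DESeq2 (adjusted p = 0.0422), with DESeq2 size factors (0.0479), with no filter (0.0108) and without erythrocyte genes (0.0491), and without NC replicate 3 or 4 or CAL replicate 1 or 3 (edgeR adjusted p from 0.0400 to 0.0497).

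The remaining class II members overlapped widely between the groups. RT1-Da was at 193, 198, 214 and 243 CPM in HS cortex and at 339, 216, 162, 130.1 and 405 CPM in NC cortex (log2 fold change -0.24, SE 0.22, edgeR adjusted p = 0.507). Cd74 was at 1201, 938, 1388 and 1691 CPM in HS cortex and at 2056, 1446, 1008, 1259.6 and 2192 CPM in NC cortex (log2 fold change -0.29, SE 0.19, edgeR adjusted p = 0.345). The NC spread came from replicates 1 and 5, the highest for both genes. Over all members, leaving out 1 cortex library gave between 0 and 5 calls, with 0 when HS replicate 1 was left out. There was 1 call without NC replicate 1 or HS replicate 2 or 3, and 2 without NC replicate 2.

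**Figure D1:**
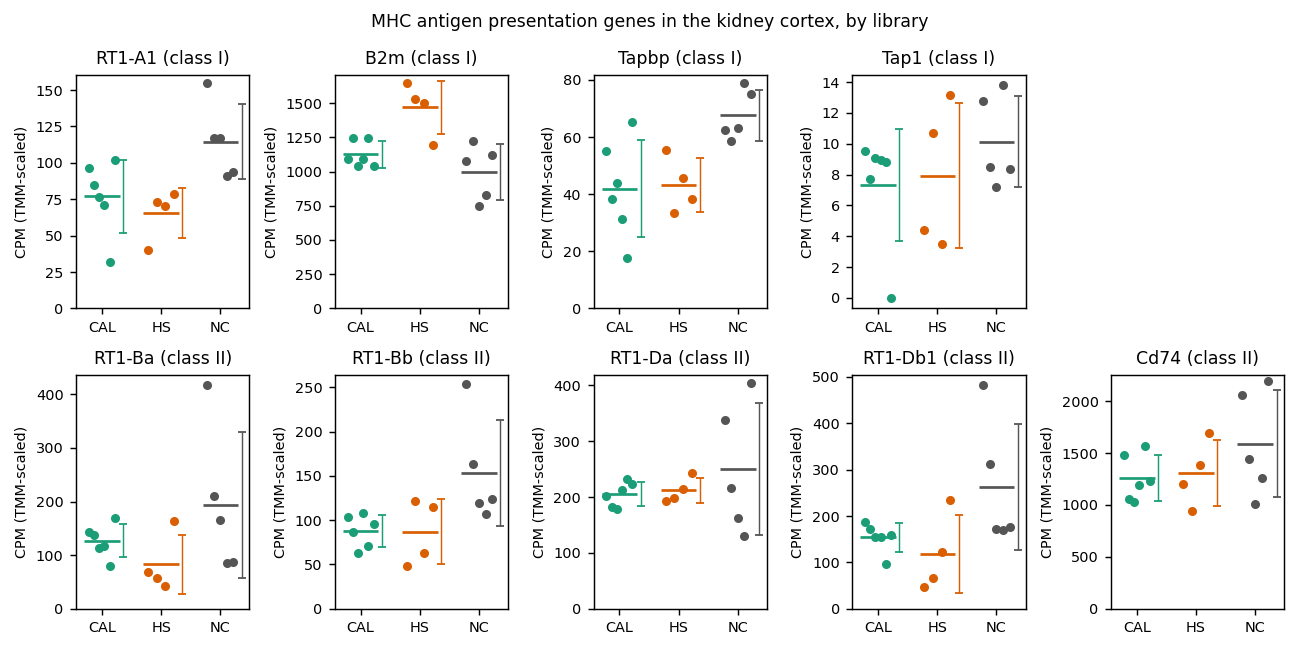
Level of each gene in every kidney cortex library, in TMM-scaled CPM on a linear axis, with a line at the group mean and a bar of 1 SD. CAL has 6, HS 4 and NC 5 libraries. For RT1-A1 and Tapbp the HS points lie wholly below the NC points, while for RT1-Da they lie inside the NC range.

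Cell type markers bear on these values. Summed B cell markers were at 0 to 9.15 CPM in HS cortex and 0 to 3.34 CPM in NC cortex, with 3 and 6 of the 8 markers at 0 in every library of the group. Pan-leukocyte markers summed to 164 to 245 CPM in HS and 160.2 to 322 CPM in NC, macrophage markers to 715 to 989 CPM in HS and 627 to 1225 CPM in NC, and dendritic cell markers to 33.2 to 54.9 CPM in HS and 36.01 to 48.2 CPM in NC. T cell markers summed to 17.9 to 49.1 CPM in HS and 27.6 to 78.4 CPM in NC. These leukocyte sums overlapped between the groups, and 0 of the 5 pan-leukocyte, 6 macrophage and 2 dendritic cell markers tested passed. NC replicates 1 and 5, the highest for Cd74 and RT1-Da, also had the highest pan-leukocyte sums, 322 and 265 CPM. Erythrocyte markers did not overlap, at 1039 to 1915 CPM in HS and 3932 to 20347 CPM in NC, with 6 of 7 tested genes lower. With the erythrocyte genes removed before scaling, 5 members passed in place of 4, the added gene being RT1-Bb. The part of blood or leukocyte content in the member changes was not tested.

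For calcitriol given with salt, no member passed the test against salt alone in the cortex. Of 8 members tested, 0 passed in CAL against HS by edgeR, DESeq2 or voom with library weights, where edgeR called 0.758% of all genes, 0.266% higher and 0.492% lower. At an unadjusted p under 0.05 there was 1 member, and 1219 of all 7524 genes. The member was B2m, with 1039, 1088 and 1248 CPM as the lowest, median and highest of the 6 CAL libraries, against 1649, 1532, 1500.4 and 1197 CPM in HS. Its log2 fold change was -0.38 (SE 0.13, edgeR adjusted p = 0.150). RT1-Ba (log2 fold change 0.50, SE 0.36), RT1-Db1 (0.34, SE 0.33) and RT1-A1 (0.23, SE 0.24) had fold changes above 0 with edgeR adjusted p of 0.546, 0.658 and 0.686. Tapbp (0.04), RT1-Bb (-0.05), RT1-Da (-0.05) and Cd74 (-0.05) were near 0 in log2 fold change. The members' median was -0.00 on the log2 scale and that of all genes -0.01. The groups overlapped for every member, whereas 1.87% of all genes were higher and 2.30% lower without overlap. Erythrocyte markers summed to 3613 to 6958 CPM in CAL cortex, against 1039 to 1915 CPM in HS cortex, with 4 of 7 genes higher, and their part was not tested.

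Against NC, the CAL cortex was lower in fold change for 7 of 8 members, and none passed. edgeR called 0 of 7524 genes here (0%), with 892 genes and 4 members at an unadjusted p under 0.05, and voom with library weights likewise called 0 genes, whereas DESeq2 called 15 genes and no member. The members' median log2 fold change was -0.59, against -0.00 over all genes. RT1-Bb had the smallest p of the members. It was at 63.3, 91.2 and 109 CPM (lowest, median, highest) in CAL cortex and at 254, 163, 119, 106 and 123 CPM in NC cortex, with 1 NC library inside the CAL range (log2 fold change -0.80, SE 0.22, edgeR adjusted p = 0.142). RT1-Db1 ran from 97.1 through a median of 157 to 187 CPM in CAL cortex (log2 fold change against NC -0.77, SE 0.28, edgeR adjusted p = 0.287). Tapbp ran from 17.7 through 41.2 to 65.2 CPM in CAL cortex (-0.63, SE 0.21, edgeR adjusted p = 0.250). RT1-A1 ran from 31.8 through 80.4 to 102 CPM in CAL cortex (-0.56, SE 0.20, edgeR adjusted p = 0.283). The log2 fold changes of the others were -0.63 for RT1-Ba, -0.34 for Cd74, -0.29 for RT1-Da and 0.17 for B2m, with edgeR adjusted p from 0.433 to 0.599.

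In mean level, NC cortex was the highest of the 3 groups for 8 of the 9 genes. B2m was highest in HS and lowest in NC, at 1125 ± 95.7 CPM in CAL, 1469.6 ± 193 CPM in HS and 998 ± 203 CPM in NC (SD, n = 6, 4 and 5). CAL lay between HS and NC in mean for RT1-A1, B2m, RT1-Ba, RT1-Bb and RT1-Db1, and no step between CAL and a neighbouring group passed the test. For RT1-Bb the CAL and HS means were nearly level, at 88.0 ± 18.1 and 87.1 ± 36.6 CPM.

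In the colon, class II RNA in high salt was split between libraries. Cd74 was at 806, 898, 12974, 12584 and 3908 CPM in HS colon replicates 1 to 5, against 4344, 1356, 1379, 1129 and 1065 CPM in NC colon replicates 1 to 5. HS held both the lowest and the highest libraries of the tissue, with 2 below every NC library and 2 above. The log2 fold change of Cd74 was 1.75 (SE 0.62) and did not pass (edgeR adjusted p = 0.451).

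In the other class II genes too, HS replicates 1 and 2 were the lowest HS libraries and replicates 3 and 4 the highest. RT1-Da was at 249, 348, 2566, 2319 and 941 CPM in HS colon and at 1016, 372, 319.9, 309 and 371 CPM in NC colon (log2 fold change 1.42, SE 0.52, edgeR adjusted p = 0.467). RT1-Bb was at 76.0, 171, 1161, 1519 and 427 CPM in HS colon and at 701, 233, 306, 146 and 164 CPM in NC colon (1.11, SE 0.59, edgeR adjusted p = 0.628). In each of these genes HS replicates 3 and 4 were the highest of all colon libraries. RT1-Db1 was at 107, 98.7, 1297, 1425 and 579.6 CPM in HS colon and at 1049.7, 343, 347, 241 and 242 CPM in NC colon (0.65, SE 0.60, edgeR adjusted p = 0.817). RT1-Ba was at 62.4, 89.8, 835, 1606 and 487 CPM in HS colon and at 968, 321, 287, 197 and 237 CPM in NC colon (0.61, SE 0.62, edgeR adjusted p = 0.848). HS replicates 1 and 2 were below all NC libraries for both genes.

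None of the 4 class I genes passed in the colon either. RT1-A1 was at 184, 175, 506, 276 and 301 CPM in HS colon and at 539, 410.1, 422, 432 and 351 CPM in NC colon, with 4 of 5 HS libraries below every NC library (log2 fold change -0.59, SE 0.30, edgeR adjusted p = 0.612). B2m was at 4893, 3966, 6292, 1852 and 3944 CPM in HS colon and at 4712, 3809, 4200.2, 4029 and 5183 CPM in NC colon (-0.07, SE 0.26, edgeR adjusted p = 0.976). HS replicate 4, high in class II, had the lowest B2m of the tissue. Tap1 was at 42.0, 31.4, 191, 89.4 and 43.1 CPM in HS colon and at 55.3, 20.4, 24.8, 18.4 and 15.03 CPM in NC colon (1.55, SE 0.55, edgeR adjusted p = 0.449). Every HS library exceeded NC replicates 2 to 5 in Tap1. Tapbp was at 211, 148, 379, 310.3 and 272 CPM in HS colon and at 262, 236, 276, 305 and 269 CPM in NC colon (-0.04, SE 0.24, edgeR adjusted p = 0.987).

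Of 9 members tested in HS against NC colon, 0 passed by edgeR, DESeq2 or voom with library weights, and 3 had an unadjusted p under 0.05 by edgeR. edgeR called 0 of 7217 genes (0%), with 614 at an unadjusted p under 0.05, DESeq2 called 11 and voom with library weights 0. The members' median log2 fold change was 0.65 and that of all genes 0.04. Without HS replicates 3 and 4, the log2 fold changes were 0.00 for Cd74, 0.08 for RT1-Da and 0.55 for Tap1. They turned below 0 for RT1-Bb (-0.52), RT1-Db1 (-0.82) and RT1-Ba (-0.99), with edgeR adjusted p of at least 0.827 for each class II gene. RT1-A1 was then at -0.99, Tapbp at -0.37 and B2m at -0.04.

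**Figure D2:**
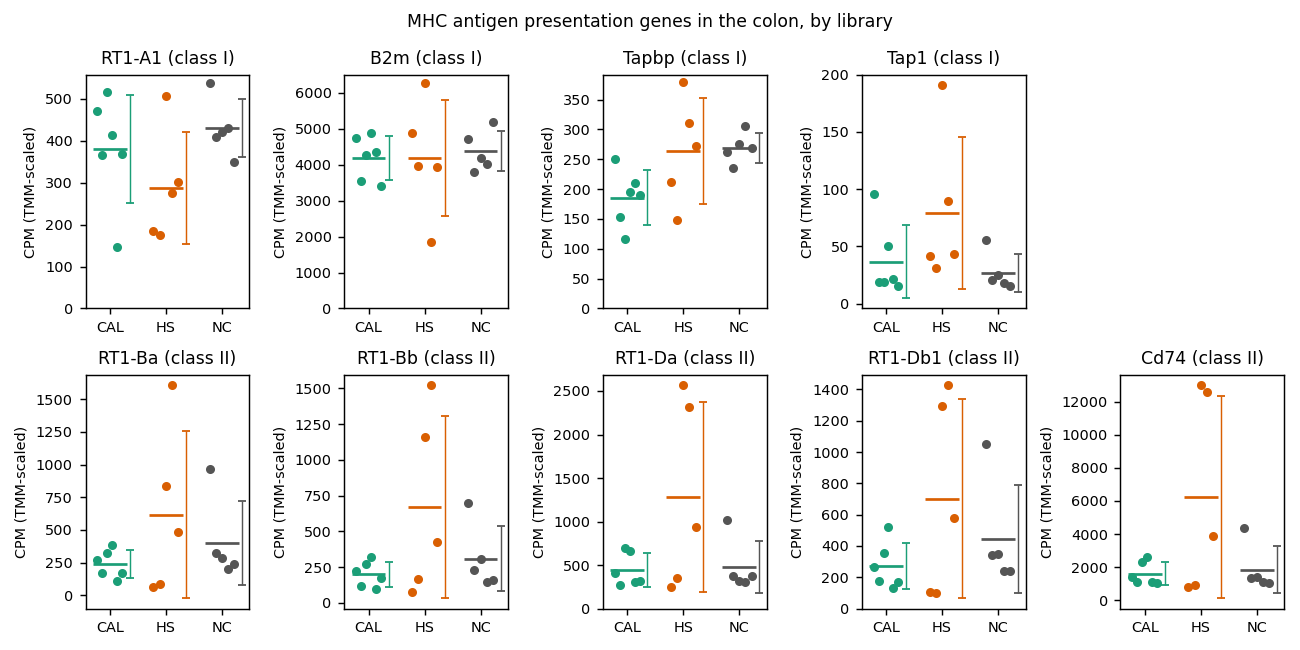
Level of each gene in every colon library, in TMM-scaled CPM on a linear axis, with a line at the group mean and a bar of 1 SD. CAL has 6, HS 5 and NC 5 libraries. For RT1-Bb, RT1-Da, RT1-Db1 and Cd74, HS replicates 3 and 4 lie above all others, and for RT1-Ba NC replicate 1 lies between them.

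Calcitriol with salt, set against salt alone in the colon, gave negative fold changes for all 5 class II genes, none past the threshold. Cd74 ran from 1065 through a median of 1273 to 2629 CPM in CAL colon, a span which the HS libraries exceeded on both sides. Its log2 fold change was -1.96 (SE 0.59, edgeR adjusted p = 0.345). The 4 class II chains had log2 fold changes from -1.73 to -1.36, and all 5 class II genes had an unadjusted p under 0.05, as had 758 of all 7217 genes. Among class I genes, Tapbp ran from 116 through 193 to 250.0 CPM in CAL colon (log2 fold change -0.49, SE 0.23, edgeR adjusted p = 0.458). Tap1 had a log2 fold change of -0.96 (SE 0.50), RT1-A1 of 0.41 (SE 0.29) and B2m of 0.0037 (SE 0.25). edgeR called 0 of 9 members and 0.0139% of all genes, DESeq2 4 genes and voom with library weights 0, with no member in either. Without HS replicates 3 and 4 the log2 fold changes of Cd74, RT1-Da and RT1-Bb were -0.21, -0.18 and -0.09, and those of RT1-Db1 and RT1-Ba were 0.12 and 0.25. Class I values were then 0.81 for RT1-A1, -0.14 for Tapbp, 0.054 for Tap1 and -0.020 for B2m.

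Against NC, the CAL colon gave 0 calls among 9 members and among all 7217 genes by edgeR (0%), with 1 member and 278 genes at an unadjusted p under 0.05. By DESeq2 0 genes passed, and by voom with library weights 1, which was no member. The member was Tapbp, whose log2 fold change was -0.52 (SE 0.23, edgeR adjusted p = 0.9999), with 5 of 6 CAL libraries below every NC library. Of all genes, 0.430% were lower in CAL without overlap, and no member was. RT1-A1 ran from 147 through 392 to 517 CPM in CAL colon (-0.18, SE 0.29, edgeR adjusted p = 0.9999). Cd74 had -0.21 (SE 0.58), RT1-Bb -0.61 (SE 0.57), RT1-Db1 -0.71 (SE 0.58), RT1-Ba -0.75 (SE 0.60), RT1-Da -0.11 (SE 0.49), B2m -0.06 (SE 0.25) and Tap1 0.59 (SE 0.53). In mean level, CAL was the lowest and HS the highest of the 3 colon groups for all 5 class II genes, although none of these steps passed the test. Without NC replicate 1 the NC mean was below that of CAL for RT1-Da (343 CPM, against 444 CPM in CAL) and Cd74 (1232 CPM, against 1606 CPM in CAL). Without HS replicates 3 and 4 the HS mean was below that of CAL for RT1-Ba (213 CPM, against 238 CPM in CAL) and RT1-Db1 (262 CPM, against 271 CPM in CAL), and below that of NC for RT1-Bb (225 CPM, against 310 CPM in NC). Cd74 averaged 1606 ± 689 CPM in CAL, 6234 ± 6105 CPM in HS and 1855 ± 1398 CPM in NC (SD, n = 6, 5 and 5).

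Leukocyte markers varied with class II between colon libraries. B cell markers summed to 15.6 to 540.3 CPM in CAL colon, to 3.40, 13.5, 1142, 1934 and 808 CPM in HS colon replicates 1 to 5 and to 648, 23.6, 154, 80.3 and 20.0 CPM in NC colon replicates 1 to 5. Pan-leukocyte markers summed to 261 to 1153 CPM in CAL, 232 to 3599.6 CPM in HS and 322 to 1675 CPM in NC. Macrophage markers summed to 834 to 1764 CPM in CAL, 877 to 5037 CPM in HS and 1087 to 1946 CPM in NC. The B cell genes Cd79a and Cd79b, which form the signalling part of the B cell receptor, reached 487 and 705 CPM in HS replicate 4, against 3.40 and 0 CPM in HS replicate 1. T cell sums ran from 94.8 to 369 CPM in CAL, 60.6 to 1017 CPM in HS and 72.3 to 371 CPM in NC, and dendritic cell sums from 155 to 355 CPM in CAL, 194 to 984 CPM in HS and 155 to 413 CPM in NC. CAL replicates 3 and 4, HS replicates 3, 4 and 5 and NC replicate 1 were the 6 libraries highest in both summed B cell markers and Cd74. Of the 5 B cell markers tested in HS against NC, 0 passed. Smooth muscle markers summed to 3581 to 6827 CPM in CAL, 2221 to 25632 CPM in HS and 2958 to 16602 CPM in NC. The part of tissue content in the class II values was not tested.

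Class II and class I were set against each other by the log2 ratio of their summed counts in each library, a description with no test. B2m and Cd74 make up most of these sums. In HS cortex B2m averaged 1469.6 CPM of a class I sum of 1586 CPM, and Cd74 1305 CPM of a class II sum of 1805 CPM. The ratio therefore mainly follows Cd74 over B2m, and B2m rose in HS cortex while RT1-A1 fell. In the cortex the ratio was 0.545 ± 0.187 in CAL, 0.160 ± 0.517 in HS and 0.996 ± 0.310 in NC (SD, n = 6, 4 and 5). HS minus NC was -0.84, with HS replicates 1 to 3 below every NC library and HS replicate 4 inside the NC range. As a difference of mean log2 levels, which gives each gene equal weight, the cortex difference between HS and NC was -0.41. For CAL minus NC in the cortex it was 0.034, against -0.45 by summed counts. In the colon the ratio was -0.89 ± 0.47 in CAL, 0.26 ± 2.04 in HS and -0.77 ± 0.78 in NC (n = 6, 5 and 5). HS minus NC was 1.03 there, and -0.22 without HS replicates 3 and 4.

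The salt response of the class II genes was then compared between tissues directly. The colon effect minus the cortex effect, HS against NC, was 2.05 for Cd74 (log2 scale, SE 0.72), 1.90 for RT1-Bb (SE 0.73), 1.80 for RT1-Db1 (SE 0.79), 1.78 for RT1-Ba (SE 0.83) and 1.68 for RT1-Da (SE 0.63). All 5 had an unadjusted p under 0.05, as had 1226 of all 9128 genes, but their edgeR adjusted p ran from 0.212 to 0.350. The class I differences were 0.65 for Tapbp, 0.23 for RT1-A1 and -0.59 for B2m. Tap1 had too few counts to be tested in the cortex alone and entered this fit through its colon counts. Its difference of 1.72 (SE 0.83) is therefore not counted. Of the 8 members tested in each tissue alone, 0 passed by edgeR, DESeq2 or voom with library weights. Of all 9128 genes edgeR called 0.0219% (0.0110% higher and 0.0110% lower), DESeq2 51 genes and voom 19. Without HS colon replicates 3 and 4 the 5 class II differences were between 0.10 and 0.29. For CAL against HS the class II differences ran from -1.90 to -1.47, with edgeR adjusted p from 0.373 to 0.463, and without HS colon replicates 3 and 4 from -0.22 to -0.01. Those of class I were -0.49 for Tapbp, 0.18 for RT1-A1 and 0.38 for B2m, with -0.73 for Tap1, again not counted. For CAL against NC the differences of the 8 members other than Tap1 ran from -0.20 for B2m to 0.41 for RT1-A1. That of Tap1, not counted, was 0.98. edgeR called 0 of 9128 genes (0%) in both, with 878 and 411 at an unadjusted p under 0.05, DESeq2 called 13 and 0, and voom 0 and 0.

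**Figure D3:**
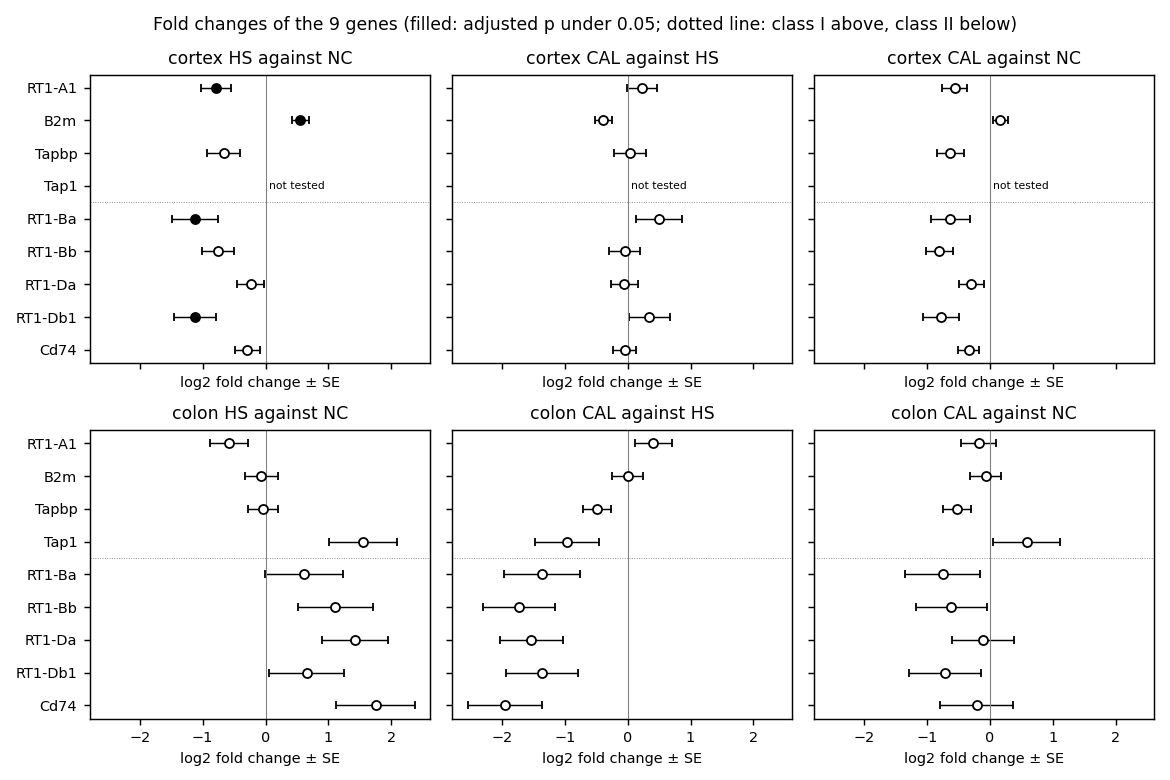
Log2 fold change of each gene with its SE in the 3 group comparisons, cortex in the top panels and colon in the bottom ones. Filled points passed an edgeR adjusted p of 0.05: they are B2m, RT1-A1, RT1-Ba and RT1-Db1 in cortex HS against NC. Class II points lie above 0 in colon HS against NC and below 0 in the cortex.

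Between the normal tissues, the class I genes B2m, Tapbp and RT1-A1 were higher in colon than in cortex. In 1 fit to all 31 libraries, 3 of the 8 members that had also been tested in each tissue alone passed as higher and 0 as lower, where 58.8% of all genes passed, 30.4% higher and 28.4% lower. B2m had a log2 fold change of 2.02 (SE 0.21, edgeR adjusted p = 4.72e-10), Tapbp 1.89 (SE 0.24, edgeR adjusted p = 2.33e-08) and RT1-A1 1.79 (SE 0.28, edgeR adjusted p = 1.51e-06). Tap1 had 4 to 10 counts per NC cortex library and entered this fit through its colon counts, so its value of 1.27 (SE 0.55, edgeR adjusted p = 0.0463) is not counted. Its p passed the threshold narrowly and no longer did so with DESeq2 size factors (adjusted p = 0.0520), with the 1 CPM filter (adjusted p = 0.0647), or when NC colon replicate 1, HS colon replicate 4, CAL colon replicate 4, NC cortex replicate 1, 2, 3 or 5 or CAL cortex replicate 1 or 5 was left out (edgeR adjusted p of up to 0.231). No class II gene passed. Their log2 fold changes were 0.93 for RT1-Ba, 0.89 for RT1-Bb, 0.82 for RT1-Da, 0.63 for RT1-Db1 and 0.11 for Cd74, and RT1-Ba passed without NC cortex replicate 1 (edgeR adjusted p = 0.0414). Under voom with library weights RT1-Da passed (0.74, adjusted p = 0.0441). With treatment and number as a block, RT1-Ba (0.93, edgeR adjusted p = 0.0229) and RT1-Da (0.78, edgeR adjusted p = 0.0491) passed. With HS colon replicates 3 and 4 left out of the fit, RT1-Bb (0.87, edgeR adjusted p = 0.0317) and RT1-Da (0.81, edgeR adjusted p = 0.0240) passed.

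Within groups, the class II genes moved together from library to library in the colon. A difference between the tissues was not tested, and Cd74 spanned a wider range in the colon. Each member's log2 CPM, as a deviation from its group mean, was correlated with that of Cd74, and p came from 100000 permutations within groups, two-sided, adjusted over 16 relations. Over 16 colon libraries r was 0.99 for RT1-Da (Spearman rho 0.91), 0.98 for RT1-Db1 (rho 0.96), 0.97 for RT1-Ba (rho 0.94) and 0.96 for RT1-Bb (rho 0.93), with adjusted permutation p of at most 1.2e-04 for r. Without the 2 libraries farthest from the median, which were HS replicates 3 and 4, these r were 0.97, 0.98, 0.96 and 0.91. RT1-A1 had r of 0.66 and rho of 0.73 (adjusted permutation p = 0.0117 for r), and 0.59 without those libraries (adjusted permutation p = 0.0161). Tap1 had r of 0.69 and rho of 0.79 (adjusted permutation p = 0.0106 for r), which no longer passed without them (r 0.48, adjusted permutation p = 0.0843). Tapbp (r 0.53, rho 0.50) and B2m (r -0.13, rho 0.07) did not pass.

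In the cortex 1 of 8 relations with Cd74 passed. RT1-Da had r of 0.81 and rho of 0.93 over 15 libraries (adjusted permutation p = 0.00691 for r). Without NC replicates 1 and 5 r was 0.60 and rho 0.64, and neither passed (adjusted permutation p = 0.0843 and 0.0790). RT1-Db1 had r of 0.44 (rho 0.46), RT1-Bb 0.26 (rho 0.36) and RT1-Ba 0.21 (rho 0.23). The class I genes lay between -0.08 and 0.34 in r.

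The likeness of other genes to the class II mean was ranked in the same way, as a description over genes averaging 5 or more in log2 CPM. In the colon the 6 nearest of 5090 genes were Arhgdib (r 0.98), Il2rg (0.97), Laptm5 (0.96), Coro1a (0.95), Spib (0.95) and Ptpn6 (0.95) over 16 libraries. Arhgdib, Laptm5 and Coro1a were on the list of pan-leukocyte markers, and Il2rg encodes the gamma chain shared by several cytokine receptors of lymphocytes. Without HS replicates 3 and 4 the nearest 6 were Arhgdib (r 0.97), Ptprc (0.95), Clu (0.94), Coro1a (0.94), Lcp1 (0.94) and Lyz2 (0.94). In the cortex the nearest were Anxa1 (r 0.77), Igbp1 (0.75), Dynll1 (0.75), Bcl10 (0.74), Thap4 (0.74) and RGD1305938 (0.73) over 15 libraries, none of them on a leukocyte list. For class I the nearest colon genes were Actr3 (r 0.90), Nln (0.88), Lgals3bp (0.87), Api5 (0.87), Lap3 (0.85) and Ifi47 (0.85). Without HS replicates 3 and 4 they were Nln (r 0.90), Nr3c1 (0.90), Lgals3bp (0.87), Mfn1 (0.85), Tent2 (0.85) and Btg1 (0.83). The nearest cortex genes for class I included Snx1 (0.79), Afm (0.78), Mgst1 (0.77), Mcrip1 (0.77) and Alg14 (0.76).

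Levels and ratios of members were also correlated between colon and cortex libraries of the same treatment and number, and 3 of 13 relations passed for both r and rho. The labels do not say that a number marks an animal, and these 13 relations were chosen after the data were seen. For the log2 ratio of RT1-A1 to B2m, r was 0.84 and rho 0.70 over 15 numbers as deviations from group means (adjusted permutation p = 0.0158 and 0.0402). In the colon the ratio was lowest in CAL replicate 5 (-4.85), HS replicate 1 (-4.70) and HS replicate 2 (-4.47), and those numbers had cortex ratios of -5.18, -5.28 and -4.34. HS replicate 3 was near HS replicate 2 in the cortex, at -4.37, but was at -3.63 in the colon. Without the 2 numbers farthest from the colon median r was 0.53 and did not pass (adjusted permutation p = 0.141).

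Between class II chains, the ratio of RT1-Ba to RT1-Da had r of 0.68 and rho of 0.75 between the tissues (adjusted permutation p = 0.0158 and 0.0393), and r of 0.80 without the 2 farthest numbers (adjusted permutation p = 0.0251). RT1-Db1 alone had r of 0.83 and rho of 0.81 (adjusted permutation p = 0.0158 and 0.0407), and 0.68 without the farthest (adjusted permutation p = 0.0820). For RT1-Db1 over RT1-Da r was 0.67 and rho 0.60 (adjusted permutation p = 0.0551 and 0.101), and 0.73 without them (adjusted permutation p = 0.0302). The remaining 9 relations, among them Cd74 (r 0.42, rho 0.32) and B2m (r 0.39, rho 0.39), did not pass. Over all genes, 1 of 15 such pairs of libraries had deviations correlated above 0.1, with r from -0.03 to 0.17. Only HS 3 (-0.03) and NC 5 (-0.002) had a negative r. Colon and cortex libraries of unlike numbers were not compared, so these r do not decide whether a number marks an animal.

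**Figure D4:**
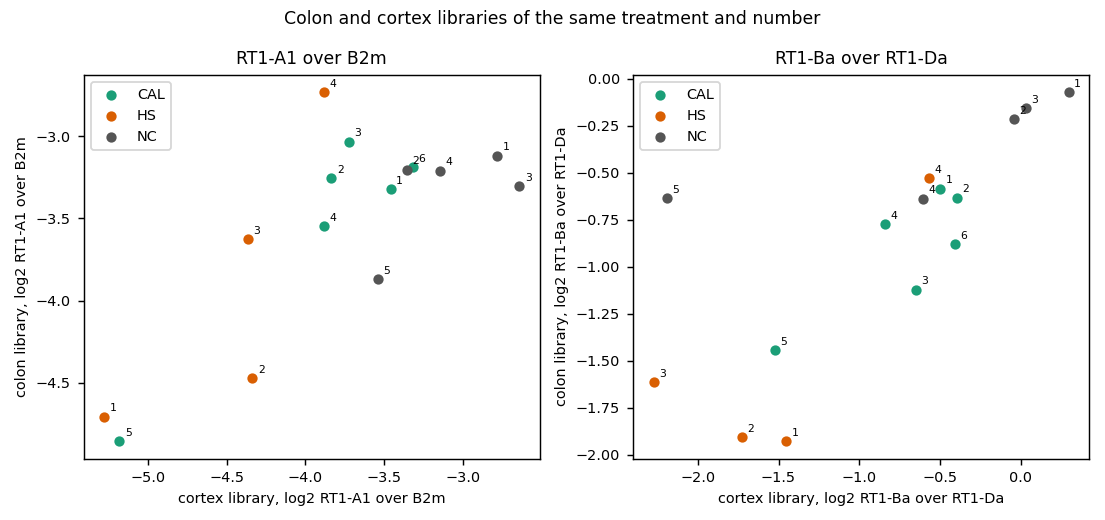
Log2 ratio of RT1-A1 to B2m and of RT1-Ba to RT1-Da in the colon and the cortex library of the same treatment and number, 15 points per panel. HS 1, HS 2 and CAL 5 lie low in both tissues for RT1-A1 over B2m.

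Of the other genes of the 2 pathways, 1 passed in a comparison of the groups. Of 22 class I pathway genes (immunoproteasome, chaperones, further RT1 genes and regulators), 15 were tested in cortex and 18 in colon, and 0 passed in any comparison of the groups. In the colon the smallest p for HS against NC were those of Irf1, a transcription factor induced by interferon, and Psmb9, an immunoproteasome subunit. Irf1 was at 154, 76.3, 442, 226 and 156 CPM in HS colon and at 125, 61.3, 80.0, 97.4 and 105 CPM in NC colon (log2 fold change 1.16, SE 0.33, edgeR adjusted p = 0.330). Psmb9 was at 104, 98.7, 818, 176 and 89.4 CPM in HS colon and at 119.9, 73.9, 77.2, 96.1 and 104 CPM in NC colon (1.43, SE 0.47, edgeR adjusted p = 0.438). HS replicate 3 was the highest library for both genes. In CAL against HS colon the smallest p were those of Pdia3 (-0.58, SE 0.21) and Psmb8 (-1.18, SE 0.44), with edgeR adjusted p of 0.345 and 0.346, and in CAL against NC colon those of Irf1 (0.84, SE 0.32) and RT1-CE7 (-0.60, SE 0.26), both with an edgeR adjusted p of 0.9999. In the cortex the smallest p were those of Canx (0.37, edgeR adjusted p = 0.0824) and Psmb10 (-0.81, 0.112) for HS against NC, of Pdia3 (-0.35, 0.212) and Canx (-0.27, 0.309) for CAL against HS, and of RT1-CE5 (-0.95, 0.218) and RT1-CE7 (-0.61, 0.356) for CAL against NC.

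Of the 18 class II pathway genes, 17 were listed, 7 were tested in cortex and 9 in colon, and Ctsl alone passed in a comparison of the groups. Ctsl encodes cathepsin L, a lysosomal protease that can cut the invariant chain. It was at 3352, 2417, 2065 and 2382 CPM in HS cortex and at 1982, 1906, 1682, 1786 and 1783 CPM in NC cortex, with no overlap. The log2 fold change was 0.48 (SE 0.13, edgeR adjusted p = 0.0212), lost without HS replicate 1 (edgeR adjusted p = 0.142). In CAL cortex Ctsl ran from 1465 to 2076 CPM, and its log2 fold change against HS was -0.61 (SE 0.13, edgeR adjusted p = 0.0221), lost without HS replicate 1, 2 or 4 (edgeR adjusted p of 0.148, 0.0812 and 0.0531). In CAL against NC cortex the smallest p were those of Lgmn and Ifi30, with log2 fold changes of -0.29 and -0.31 and edgeR adjusted p of 0.366 and 0.380. In the colon they were Ifi30 (0.70, SE 0.30) and RT1-DOb (1.51, SE 0.89) for HS against NC, with edgeR adjusted p of 0.541 and 0.670, and Ifi30 (-0.97, SE 0.29) and Rfxank (0.82, SE 0.40) for CAL against HS, with edgeR adjusted p of 0.345 and 0.483. For CAL against NC colon they were RT1-DOa and Ifi30, both with an edgeR adjusted p of 0.9999.

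Between the normal tissues, of 14 class I pathway genes tested in each tissue alone, 10 were higher in colon and 1, Canx, was lower, beside 30.4% and 28.4% of all genes. Canx had a log2 fold change of -0.52 (edgeR adjusted p = 0.0209). The largest was the heavy chain relative RT1-CE7 at 2.32 (SE 0.29, edgeR adjusted p = 1.47e-08), followed by RT1-A2 (2.21), Irf1 (2.13), Psmb8 (1.54), Psmb9 (1.52), Psmb10 (1.49), RT1-T24-4 (1.19), RT1-CE5 (1.18), Erap1 (1.12) and Psme2 (1.10). Of 6 class II pathway genes tested in each tissue alone, 1 was higher in colon and 3 lower. Ctss, encoding cathepsin S, which completes the cutting of the invariant chain, was higher by 3.17 (SE 0.20, edgeR adjusted p = 5.44e-16). The lysosomal proteases Lgmn (-4.42), Ctsl (-3.20) and Ctsb (-0.78) were lower in colon. RT1-CE1 (1.99), RT1-DOa (3.48) and Cd86 (1.73) also passed, but had too few counts to be tested in the cortex alone and are not counted.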

How the data were processed

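The authors deposited whole-number counts per gene symbol. The submitters' processing notes name Trimmomatic 0.39, HISAT2 2.1.0, featureCounts 1.6.5, FastQC 0.11.9 and the build Rnor_6.0. The annotation, strand setting and handling of reads shared between RT1 genes were not given in the sources used here.

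Counts were tested in R 4.3.3 with the edgeR 4.0.16 quasi-likelihood test after TMM scaling and the edgeR filter (minimum count 10, minimum total 15), fitted per tissue to 3 groups, and to 6 groups for comparisons between tissues. Benjamini-Hochberg adjustment ran over all tested genes (threshold 0.05). SE came from the quasi-likelihood F. The test was also run on simulated counts. A count of 0 allows 3 counts, or 1.32 to 10.4 CPM in cortex and 3.27 to 11.2 CPM in colon before TMM scaling, for counting error only. No pair of libraries was identical.

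Members and lists were chosen with earlier results of these data known. All 9 members are named in each comparison. From the pathway lists, genes past the threshold are named, or the 2 with the smallest p. Marker lists are given by sums and counts, and 6 genes per tissue and class by likeness, of which 1 is not reported here. Alternatives were limma 3.58.1 voom with library weights, DESeq2 1.42.0, DESeq2 size factors within edgeR, no filter, 1 CPM in at least 4 libraries, the replicate block, no erythrocyte genes, no HS colon replicates 3 and 4, and each library left out.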

Additional observations from a re-analysis of the deposited data

Results flagged for a closer look

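In 8 of 54 sets of values (9 genes in 6 groups) 1 library stood apart by a gap of more than Dixon's 95% limit. For normal and independent sets, chance alone marks about 1 in 20. These sets share libraries and their genes can vary together, so that rate does not hold for them as it stands. Of these, 6 were the same library, NC colon replicate 1, which lay above the other 4 NC colon libraries. It had 968 CPM of RT1-Ba (others 197 to 321), 701 CPM of RT1-Bb (146 to 306), 1016 CPM of RT1-Da (309 to 372), 1049.7 CPM of RT1-Db1 (241 to 347), 4344 CPM of Cd74 (1065 to 1379) and 55.3 CPM of Tap1 (15.03 to 24.8). Its B cell markers summed to 648 CPM, against 20.0 to 154 CPM in the other NC colon libraries, and their part in these values was not tested.

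The other 2 were in CAL cortex. Tap1 had 0 counts in replicate 6, where a count of 0 allows up to 5.75 CPM, and 7.68 to 9.51 CPM in the others. RT1-Db1 was at 97.1 CPM in replicate 5, below the 154 to 187 CPM of the others.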

How the results depend on the processing

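Of 87 member fold changes, 65 kept direction and side of the threshold under every alternative other than leaving out 1 library, and 51 under every alternative. No fold change that passed changed direction. Colon fold changes depend on HS replicates 3 and 4, cortex calls on single libraries, and the depth leaves Tap1 untested in cortex. Causes were not tested.

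Numbers of genes called changed as follows. DESeq2 gave 101 (cortex CAL against HS), 15 (cortex CAL against NC), 11 (colon HS against NC), 4 (colon CAL against HS), and 51 and 13 for the tissue differences of HS against NC and CAL against HS. Without a filter these were 128, 83 (2 of them members, RT1-Bb and RT1-Db1), 59, 66, 20 and 8, with 1 for colon CAL against NC. The 1 CPM filter gave 7 (cortex CAL against NC), 5 (colon CAL against HS) and 0 (tissue difference, HS against NC). voom gave 0 and 1 for colon CAL against HS and against NC, and 19 for that tissue difference. Without erythrocyte genes cortex CAL against HS had 33. Without HS colon replicates 3 and 4, colon HS against NC had 1, colon CAL against HS 0 and that tissue difference 0.

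The replicate block used the number within a tissue, and treatment with number in fits to both tissues. Whether these mark shared animals is not known, and the main fits to both tissues treated all 31 libraries as separate. The check over genes gave r from -0.21 to 0.21 within tissues and from -0.03 to 0.17 between colon and cortex, which does not decide it. The block gave 5 members in cortex HS against NC, and 22 and 42 genes for cortex CAL against HS and against NC. It gave 0 for colon CAL against HS and 25 for the tissue difference of HS against NC, where the main fit called 2. Under the block the log2 fold change in cortex CAL against HS was -0.10 for Tapbp and 0.0065 for RT1-Bb, B2m in colon CAL against NC was 0.0025, and Cd74 in NC colon against NC cortex was -0.064. The block added calls for RT1-Bb in cortex HS against NC (adjusted p = 0.0347) and for RT1-Ba (0.93, adjusted p = 0.0229) and RT1-Da (0.78, adjusted p = 0.0491) in NC colon against NC cortex.

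Signs also turned under voom for Tapbp in cortex CAL against HS (-0.056), RT1-Ba (-0.30) and RT1-Db1 (-0.13) in colon HS against NC and Cd74 in NC colon against NC cortex (-0.11). Without HS colon replicates 3 and 4 they turned in HS against NC for RT1-Ba (-0.99), RT1-Bb (-0.52) and RT1-Db1 (-0.82), in CAL against HS for B2m (-0.020), Tap1 (0.054), RT1-Ba (0.25) and RT1-Db1 (0.12), in the tissue differences for RT1-A1 (HS against NC, -0.20) and Tap1 (CAL against HS, 0.27), and for r of B2m with Cd74 in colon (0.16, also without the 2 farthest libraries). The difference of mean log2 levels gave -0.41 for HS minus NC and 0.034 for CAL minus NC in cortex. Without the 2 farthest libraries, r with Cd74 was 0.60 for cortex RT1-Da and 0.48 for colon Tap1, and without the 2 farthest numbers, r between tissues was 0.68 for RT1-Db1, 0.53 for RT1-A1 over B2m and 0.73 for RT1-Db1 over RT1-Da.

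Leaving out 1 library gave 324 to 961 calls in cortex HS against NC (0 to 5 members), 2 to 80 in CAL against HS and 0 to 40 in CAL against NC. In colon it gave 0 to 1 and 0 to 14 for HS against NC and CAL against HS, and for the tissue differences of HS against NC and CAL against HS 0 to 93 and 0 to 54. Fold changes whose sign turned ranged, in cortex CAL against HS, from -0.10 to 0.20 (Tapbp), -0.22 to 0.13 (RT1-Bb), -0.10 to 0.028 (RT1-Da) and -0.19 to 0.10 (Cd74). In colon HS against NC they were -0.26 to 0.12 (B2m), -0.21 to 0.11 (Tapbp) and -0.15 to 1.24 (RT1-Ba), and in CAL against HS -0.18 to 0.20 (B2m). In colon CAL against NC they were -0.11 to 0.0023 (B2m), -0.011 to 1.04 (Tap1), -0.28 to 0.37 (RT1-Da) and -0.41 to 0.39 (Cd74). In the tissue differences they were -0.11 to 0.36 (RT1-A1, HS against NC) and, for CAL against NC, -0.60 to 0.52 (RT1-Ba), -0.044 to 0.77 (RT1-Bb), -0.035 to 0.67 (RT1-Da), -0.24 to 0.70 (RT1-Db1) and -0.056 to 0.74 (Cd74). Cd74 in NC colon against NC cortex ranged from -0.49 to 0.25.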

Other observations

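Tap2, Nlrc5 and, in the cortex and several colon libraries, Ciita were near the limit of these libraries. In the cortex the class II partners RT1-DMa, RT1-DMb, RT1-DOa and RT1-DOb and the regulator Rfxap were near it too. Rfxap had 0 counts in every cortex library and RT1-DMa 0 or 1. The highest cortex counts were 7 for RT1-DMb, 3 for RT1-DOa and 5 for RT1-DOb. Canx, Calr and Pdia3, and Irf1 in the colon, were not near the limit. Tap2, the partner of Tap1 in the peptide transporter, had 0 or 1 count in every library of both tissues, although Tap1 was counted 5 to 82 times in each colon library. Nlrc5, the activator of class I genes, had 0 counts in all 6 CAL cortex libraries and at most 4 in any library. Ciita, the activator of class II genes, had 1 to 4 counts in HS cortex and 1 to 5 in NC cortex. In the colon Ciita was at 13.6, 4.49, 74.6, 42.2 and 6.62 CPM in HS and at 29.5, 0, 5.52, 1.32 and 0 CPM in NC. HS replicates 3 and 4 were the highest of these. There 3 counts equalled 6.73 and 9.94 CPM in HS replicates 2 and 5 and 3.95 to 8.27 CPM in NC replicates 2 to 5. The Ciita values of those libraries were therefore under 3 counts. Values of CAL colon are not given here. The genes of this paragraph were named after their values were seen, and Tap2, Nlrc5 and Ciita were not tested. Why Tap2 had so few counts beside Tap1 was not tested.

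The make-up of class II RNA also varied. The log2 ratio of Cd74 to the 4 class II chains was 1.12 ± 0.31 in CAL cortex, 1.41 ± 0.34 in HS cortex and 0.94 ± 0.45 in NC cortex (SD, n = 6, 4 and 5). In the colon it was 0.49 ± 0.19 in CAL, 0.75 ± 0.29 in HS and 0.17 ± 0.11 in NC (n = 6, 5 and 5). The HS and NC colon libraries were barely apart, the lowest HS value being 0.345 and the highest NC value 0.338. HS replicates 3 and 4 were the highest, at 1.15 and 0.87. This ratio was not tested, and the share of other gene ratios without overlap was not computed. The log2 ratio of RT1-B to RT1-D counts was -0.70 ± 0.22 in CAL, -0.82 ± 0.40 in HS and -0.43 ± 0.21 in NC colon, with overlapping ranges.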
